A study of Mus musculus with 8 samples.

Results

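Adipocyte genes were followed in mouse calvarial cultures that had been driven toward bone formation. They were 10 genes of 24421 in the deposited tables, found by symbol: the regulators Pparg and Cebpa, the lipid droplet genes Plin1 and Plin4, the lipid uptake genes Lpl, Cd36 and Fabp4, and the secreted factors Adipoq, Cfd and Lep. They were picked with earlier results of these data known and were selected on the difference between Def6-/- and WT cells at day 12, in which Plin1, Cfd and Adipoq had stood out. That difference is therefore given as a description, with no test. Poly-A RNA was sequenced from osteoblastic cells of newborn C57BL/6 mice, in 8 libraries, 2 for each of 4 groups: WT cells at day 0, Def6-/- cells at day 0, WT cells at day 12 and Def6-/- cells at day 12. Day 12 cells had been kept in osteogenic medium with ascorbic acid and β-glycerophosphate. WT controls were littermates, and Def6-/- mice lack Def6 in every cell. The cells were digested from skull bone, and no sorting by cell type is described for these libraries, so that cells other than osteoblasts could be present. Whether the pups of a library were pooled is not given in the sources used here.

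Adipocytes and osteoblasts come from related mesenchymal stromal precursors. PPARγ, the product of Pparg, is the nuclear receptor that drives fat cell differentiation, and it works with C/EBPα, the product of Cebpa, to turn on genes of lipid uptake, lipid droplets and adipokines. Plin1 and Plin4 encode perilipins, which coat lipid droplets. Lpl encodes lipoprotein lipase, which releases fatty acids from circulating lipoproteins, Cd36 encodes a fatty acid transporter and scavenger receptor, and Fabp4 encodes a fatty acid binding protein of the cytosol. Adipoq encodes adiponectin, Cfd encodes adipsin, a protease of the alternative complement pathway, and Lep encodes leptin. Pparg, Cebpa, Lpl, Cd36 and Fabp4 are also expressed by macrophages, whereas Plin1 and Adipoq are held to be close to specific for fat cells.

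Promoters are shown for Adipoq and for Plin1, the tested gene whose levels ran closest to those of Adipoq over the 8 libraries, for Cfd, which had the highest fitted difference between genotypes at day 12, and for Pparg, which encodes the receptor upstream of them. RefSeq promoter windows on GRCm38.p6 hold 250 bases before and 50 after the start site and matched 8 of the 10 genes. Each is written 5′ to 3′ along the gene. Capitals mark matches, on either strand, to TTGCNNAA (bound by C/EBP factors) and to CCAAT, and the searches for TATAAA and for the DR1 element (AGGTCA repeated in the same direction with any 1 base between, bound by PPARγ with its partner RXR) left none in these 4 windows. The Plin1 window lies at chr7:79732727-79733026 on the minus strand, that of Adipoq at chr16:23146286-23146585 on the plus strand, that of Cfd at chr10:79890603-79890902 on the plus strand, and the most downstream of the 3 Pparg windows at chr6:115421816-115422115 on the plus strand.
Plin1: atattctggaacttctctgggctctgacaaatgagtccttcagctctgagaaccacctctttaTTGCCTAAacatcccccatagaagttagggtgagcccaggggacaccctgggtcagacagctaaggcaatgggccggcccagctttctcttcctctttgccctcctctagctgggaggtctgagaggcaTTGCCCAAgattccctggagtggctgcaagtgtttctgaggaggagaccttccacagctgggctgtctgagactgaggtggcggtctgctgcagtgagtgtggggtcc
Adipoq: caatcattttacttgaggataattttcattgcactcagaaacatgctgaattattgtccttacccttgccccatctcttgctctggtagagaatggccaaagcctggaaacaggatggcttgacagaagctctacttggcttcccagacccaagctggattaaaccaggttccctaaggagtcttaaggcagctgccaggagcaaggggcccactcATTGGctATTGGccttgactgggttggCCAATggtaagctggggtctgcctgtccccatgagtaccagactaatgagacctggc
Cfd: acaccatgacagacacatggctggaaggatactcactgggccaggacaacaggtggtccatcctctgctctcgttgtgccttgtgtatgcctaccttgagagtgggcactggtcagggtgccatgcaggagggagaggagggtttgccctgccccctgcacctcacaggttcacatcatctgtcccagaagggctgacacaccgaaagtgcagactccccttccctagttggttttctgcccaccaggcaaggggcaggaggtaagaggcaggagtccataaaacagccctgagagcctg
Pparg: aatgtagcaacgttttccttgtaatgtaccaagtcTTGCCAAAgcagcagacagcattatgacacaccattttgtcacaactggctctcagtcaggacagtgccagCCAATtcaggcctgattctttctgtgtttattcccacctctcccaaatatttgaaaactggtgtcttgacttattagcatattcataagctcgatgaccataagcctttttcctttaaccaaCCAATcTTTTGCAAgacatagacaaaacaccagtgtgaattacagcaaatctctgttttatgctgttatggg

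The Plin1 window held 2 matches to TTGCNNAA, starting 187 and 58 bases before the start site. The Adipoq window held 3 matches to CCAAT within 34 bases before the start site. The Pparg window held 2 matches to each motif, and the Cfd window held none. Among 32851 promoter windows of the same length, 10.8% held TTGCNNAA, 37.4% held CCAAT, 13.6% held TATAAA and 0.0396% held the DR1 element. A match is only a run of letters, and no match says only that these letters are not in the window.

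Def6 was read first as a check of the labels. It had 112 to 186 reads in each WT library, and 0, 1, 2 and 2 reads in the Def6-/- libraries. Reads on genes numbered 2414856 to 3482835 per library, which were 28.8 to 35.3% of all reads, and 1 read was worth 0.285 to 0.415 normalized CPM. Normalized CPM here is reads per 1000000 reads on genes, after TMM scaling between libraries. WT day 0 replicate 1 stood apart, with 34.9% of reads not placed uniquely against 21.4 to 26.6% in the others. Day 0 replicates of WT cells differed by a chi-square of 31.9 per gene, against 4.28 to 11.8 in the other groups. The summed level of 12 osteoblast markers was 36623 to 53777 normalized CPM at day 0 and 95835 to 131940 at day 12. Much of it was Col1a1, at 13123 to 28156 and 43731 to 62202. At day 0 Alpl was at only 13.5 to 21.5 and Ibsp at 0.728 to 10.2 normalized CPM, and Bglap had no read. Of the 12 markers, 9 rose by day 12 and 3 did not pass (limma, Benjamini-Hochberg adjusted p under 0.05). The mean of Spp1 was lower at day 12 in both genotypes.

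**Figure D1:**
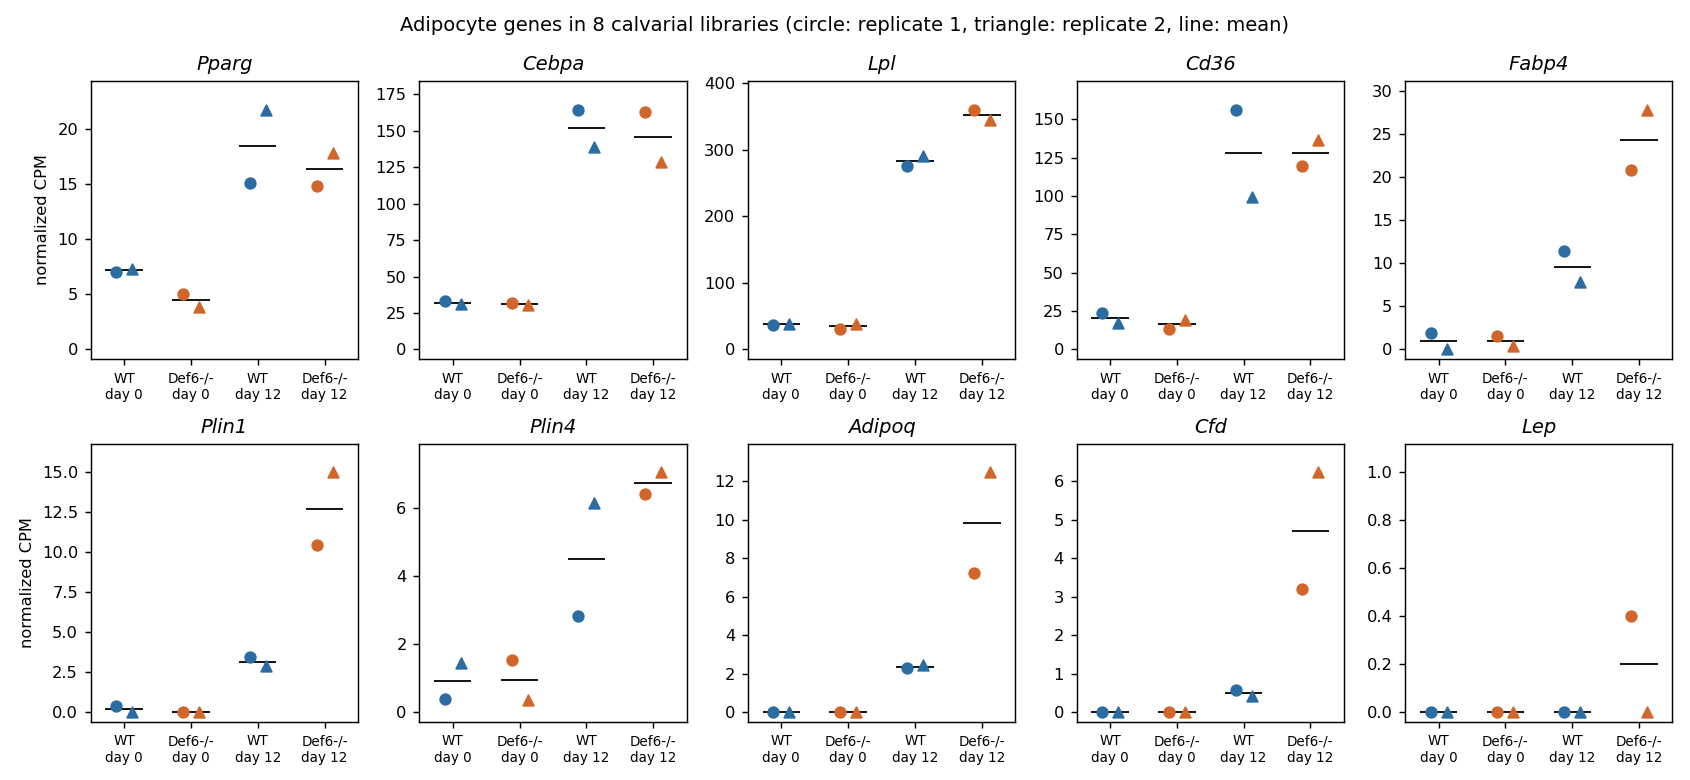
Normalized CPM of the 10 adipocyte genes (y axes, separate scales) in WT cells (blue) and Def6-/- cells (orange) at day 0 and day 12 (x axis); circles are replicate 1, triangles replicate 2 and lines the mean of 2. Day 12 libraries lay above day 0 libraries for all genes but Lep, and Plin1, Fabp4, Adipoq and Cfd were highest in Def6-/- cells at day 12.

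The first question was whether adipocyte genes changed over 12 days in osteogenic medium. All 9 genes that could be tested rose from day 0 to day 12, averaged over both genotypes (limma on log2(normalized CPM + 1), Benjamini-Hochberg adjusted p under 0.05), in cultures in which 18.2% of 12348 tested genes rose and 15.5% fell. In each of the 9 genes, all 4 day 12 libraries lay above all 4 day 0 libraries, as they did in 19.9% of all tested genes. Within WT cells alone the days did not overlap in any of the 9, with day 12 higher, against 27.3% of all genes, and the same held within Def6-/- cells, against 31.2%. Only 4 of them, Pparg, Cebpa, Lpl and Cd36, passed the expression filter (a mean of at least 1 CPM as deposited in 1 group) at day 0. Plin1, Plin4 and Fabp4 passed through the day 12 groups alone, and Adipoq and Cfd through Def6-/- cells at day 12 alone, so that they had to differ, and the count of 9 is no measure of how adipocyte genes behave. Without any filter the adjusted p was 8.71e-05 for Plin1, 0.00532 for Plin4, 0.000672 for Fabp4, 0.00011 for Adipoq and 0.00109 for Cfd (limma). Dropping the filter does not undo the choice of the genes. Plin1, Cfd and Adipoq had stood out through the Def6-/- day 12 libraries, which the averaged change includes. In bulk RNA a rise in the number of cells of a type cannot be told apart from more RNA per cell.

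Pparg, the master regulator, was low but present from the start. It had 7.06 and 7.28 normalized CPM in WT cells and 5.01 and 3.87 in Def6-/- cells at day 0 (11 to 20 reads a library). At day 12 it had 15.1 and 21.7 in WT cells and 14.8 and 17.9 in Def6-/- cells (37 to 53 reads). The genotypes overlapped at day 12 and the days did not. The rise was 1.45 ± 0.21 on the log2 scale (SE; limma, adjusted p = 0.000893). Pparg spans chromosome 6 from 115360951 to 115490399 on the plus strand (GRCm38).

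Cebpa was the more abundant regulator and rose further. At day 0 it had 33.0 and 30.9 normalized CPM in WT cells and 31.6 and 30.3 in Def6-/- cells. At day 12 it had 164 and 139 in WT cells and 163 and 128 in Def6-/- cells, with replicate 1 the higher of each pair and the genotypes overlapping. The rise was 2.20 ± 0.14 (SE; limma, adjusted p = 1.27e-05). Reads at day 12 over day 0 gave a ratio of 4.83 in WT cells (95% interval 4.09 to 5.72) and 4.72 in Def6-/- cells (3.98 to 5.62). These intervals, here and below, are exact binomial intervals on the summed reads of a group, scaled by depth, and cover counting error only. Cebpa lies on chromosome 7 from 35119293 to 35121928, where annotated exons of Gm45091 overlap it on the other strand.

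Plin1, the perilipin of large droplets, was almost absent at day 0. It had 1 read in WT replicate 1 and none in the other 3 day 0 libraries. At day 12 WT cells had 12 and 7 reads (3.41 and 2.87 normalized CPM) and Def6-/- cells had 26 and 36 reads (10.4 and 14.9). All day 12 libraries were above all day 0 libraries, and at day 12 the Def6-/- libraries did not overlap with the WT ones. The rise over both genotypes was 2.78 ± 0.27 (SE; limma, adjusted p = 0.000106). Plin1 passed the filter through day 12 alone and so had to differ, which this p does not take into account. In WT cells alone the reads went from 1 to 19, a ratio of 16.9 (95% interval 2.69 to 702.5), and in Def6-/- cells Plin1 was at least 22.9-fold higher at day 12, with the bound set by 3 reads over the day 0 group. Plin1 lies on chromosome 7 from 79720218 to 79732903 on the minus strand.

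Plin4, found on the surface of small droplets in fat cells, had few reads in all groups. Day 0 libraries had 1 and 4 reads in WT cells and 4 and 1 in Def6-/- cells. Day 12 libraries had 10 and 15 reads in WT cells (2.85 and 6.15 normalized CPM) and 16 and 17 in Def6-/- cells (6.42 and 7.06). The rise was 1.78 ± 0.34 (SE; limma, adjusted p = 0.00455), in a gene that passed the filter through day 12 alone and so had to differ. Plin4 lies on chromosome 17 from 56100591 to 56109803 on the minus strand, 27.9 Mb from Def6. Exons of Hdgfl2, listed in the tables as Hdgfrp2, overlap it on the other strand, and whether reads were counted by strand is not given in the sources used here. Hdgfrp2 was at 67.8 to 110 normalized CPM at day 0 and 57.2 to 65.8 at day 12. The part of its reads in the counts of Plin4 was not tested.

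Lpl was the most highly counted of the genes. It had 37.3 and 38.6 normalized CPM in WT cells and 31.2 and 38.4 in Def6-/- cells at day 0, which overlap. At day 12 it had 275 and 291 in WT cells and 360 and 345 in Def6-/- cells (709 to 968 reads), which do not. The rise was 3.09 ± 0.12 (SE; limma, adjusted p = 2.12e-06). Reads at day 12 were 7.42 times those at day 0 in WT cells (95% interval 6.41 to 8.64) and 10.1 times in Def6-/- cells (8.67 to 11.8).

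Cd36 also rose, with a wider spread between replicates. At day 0 it had 23.9 and 17.5 normalized CPM in WT cells and 13.5 and 19.4 in Def6-/- cells. At day 12 it had 156 and 99.3 in WT cells and 120 and 137 in Def6-/- cells, so that the WT libraries were both the highest and the lowest. The rise was 2.73 ± 0.20 (SE; limma, adjusted p = 3.03e-05). Cd36 spans chromosome 5 from 17781690 to 17888801 on the minus strand.

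Fabp4 was close to 0 before differentiation. Day 0 libraries had 5 and 0 reads in WT cells and 4 and 1 in Def6-/- cells. Day 12 libraries had 40 and 19 reads in WT cells (11.4 and 7.79 normalized CPM) and 52 and 67 in Def6-/- cells (20.9 and 27.8). The rise was 3.18 ± 0.39 (SE; limma, adjusted p = 0.000376), but Fabp4 too passed the filter through day 12 alone and so had to differ. The ratio of reads was 10.5 in WT cells (95% interval 4.25 to 33.5) and 26.4 in Def6-/- cells (11.0 to 82.7).

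Adipoq, the adipokine most closely tied to mature fat cells, had no read in any of the 4 day 0 libraries. At day 12 it had 8 and 6 reads in WT cells (2.28 and 2.46 normalized CPM) and 18 and 30 in Def6-/- cells (7.22 and 12.5). It was thus at least 4.15-fold higher at day 12 in WT cells and at least 17.7-fold higher in Def6-/- cells, against 3 reads over the day 0 group. The rise in the fit was 2.57 ± 0.27 (SE; limma, adjusted p = 0.000187), a value that depends on the pseudocount of 1 because day 0 is at 0. Adipoq passed the filter through Def6-/- cells at day 12 alone, so that it had to differ. Adipoq lies on chromosome 16 from 23146536 to 23158028 on the plus strand.

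Cfd reads came mainly from Def6-/- cells at day 12. It had no read at day 0, 2 and 1 reads in WT cells at day 12 (0.569 and 0.410 normalized CPM), and 8 and 15 reads in Def6-/- cells at day 12 (3.21 and 6.23). In Def6-/- cells it was at least 8.50-fold higher at day 12 than at day 0, and no fold is given for WT cells, whose 3 reads are at the floor. The rise over both genotypes was 1.52 ± 0.30 (SE; limma, adjusted p = 0.00482) and rested mainly on the Def6-/- libraries, with a log2 change of 0.57 ± 0.42 in WT cells. Only through those libraries at day 12 did Cfd pass the filter, so that it had to differ. Cfd lies on chromosome 10 from 79890853 to 79892655 on the plus strand.

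Lep, the hormone that reports fat stores, had 1 read in all, in Def6-/- day 12 replicate 1 (0.401 normalized CPM). It did not pass the filter, and without a filter it had an adjusted limma p of 0.60 for the change with day. Leptin RNA was thus not detectable at this depth in 7 of the 8 libraries. Lep lies on chromosome 6 from 29060220 to 29073877 on the plus strand.

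**Figure D2:**
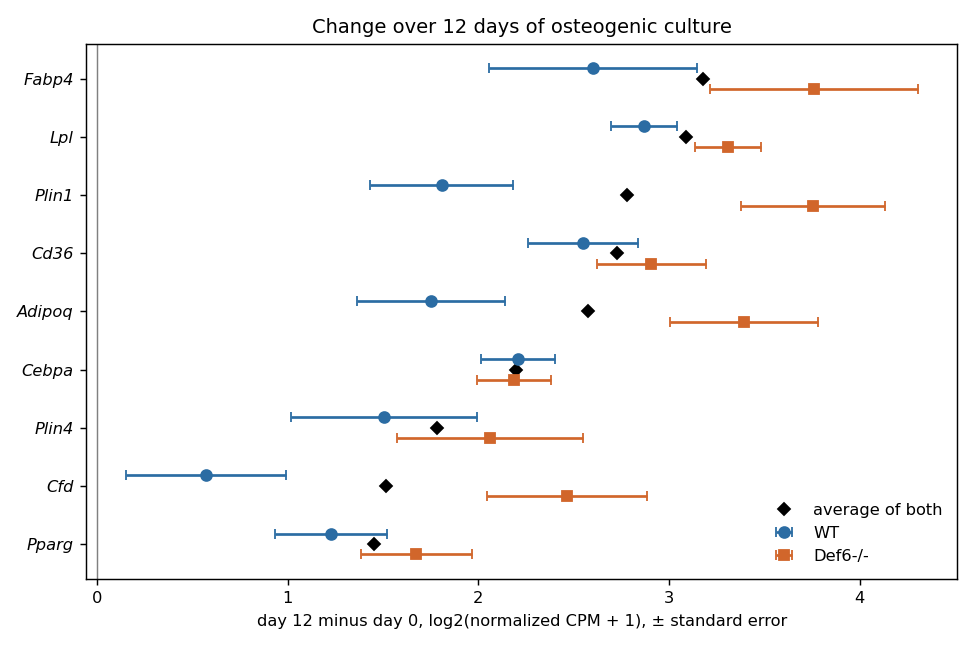
Difference between day 12 and day 0 on the log2(normalized CPM + 1) scale (x axis) for 9 adipocyte genes (y axis), in WT cells (blue circles), in Def6-/- cells (orange squares) and averaged (black diamonds); bars are standard errors of the fit to 8 libraries. Averages run from 1.45 for Pparg to 3.18 for Fabp4, and Cebpa has nearly the same change in both genotypes.

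Within each genotype the difference between days is given without a test. In WT cells it was 2.87 ± 0.17 for Lpl, 2.60 ± 0.55 for Fabp4, 2.55 ± 0.29 for Cd36 and 2.21 ± 0.19 for Cebpa (log2, SE). Plin1 (1.81 ± 0.38), Adipoq (1.75 ± 0.39), Plin4 (1.50 ± 0.49) and Pparg (1.23 ± 0.29) followed, and Cfd was lowest. The standard error ranges of neighbours in this order overlapped. In Def6-/- cells the order was Fabp4 (3.76 ± 0.55), Plin1 (3.75 ± 0.38), Adipoq (3.39 ± 0.39), Lpl (3.31 ± 0.17), Cd36 (2.91 ± 0.29), Cfd (2.46 ± 0.42), Cebpa (2.19 ± 0.19), Plin4 (2.06 ± 0.49) and Pparg (1.67 ± 0.29). Changes of the low genes are understated on this scale, so their place in the order depends on the pseudocount of 1: by the ratio of reads in WT cells, Plin1 (16.9) stood above Cebpa (4.83).

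Levels can be set side by side between genes only per length, here as normalized CPM per kilobase of all annotated exons, which understates genes with long untranslated or rarely used exons. The length used was 10478 bases for Lpl, the longest, and 4489 for Fabp4, whose annotated exons together cover its whole span. The places of these genes in the order may therefore be too low, and the order holds for this measure only. By it, Cebpa led in WT cells at day 12 with 62.4 and 52.7 per kilobase. Cd36 (43.5 and 27.6) and Lpl (26.3 and 27.8) came next and overlapped. Pparg followed at 5.11 and 7.36, then Fabp4 at 2.54 and 1.74 and Adipoq at 1.65 and 1.78, the last 2 of which overlapped. Plin4 (0.492 and 1.06), Plin1 (0.734 and 0.618) and Cfd (0.617 and 0.445) were lowest and did not separate. In Def6-/- cells Cebpa (61.8 and 48.7), Cd36 (33.3 and 38.1) and Lpl (34.3 and 32.9) were again highest. Adipoq (5.23 and 9.02), Pparg (5.02 and 6.05), Fabp4 (4.65 and 6.20) and Cfd (3.48 and 6.75) overlapped one another, and Plin1 (2.24 and 3.22) and Plin4 (1.11 and 1.22) followed. In Def6-/- cells the adiponectin gene thus stood level with its regulator Pparg per kilobase, and in WT cells it stood below.

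At day 0 the comparison of Def6-/- with WT cells asks whether the genotypes started from different levels, and it was not used to choose the genes. None of the 9 genes passed (limma, unadjusted p under 0.05 and over 1.2-fold), against 1.13% of all tested genes higher and 1.21% lower. After adjustment 1 of 12348 genes was called (0.0081%), and it was lower. These counts depend on WT day 0 replicate 2: without it, when WT replicate 1 stands alone and is assumed to vary like the other groups, 2386 genes were higher and 2213 lower. None of the 9 adipocyte genes passed in that fit either.

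Pparg was the gene nearest to a difference at day 0. Its 2 Def6-/- libraries (5.01 and 3.87 normalized CPM) lay below both WT libraries (7.06 and 7.28), as those of 10.9% of tested genes did. The difference was -0.59 ± 0.29 on the log2 scale (SE; limma, adjusted p = 0.905), and the unadjusted p also missed the threshold. The other 8 genes overlapped, where 11.8% of all genes were higher without overlap. Differences were -0.32 ± 0.29 for Cd36, -0.13 ± 0.17 for Lpl and -0.04 ± 0.19 for Cebpa. Plin1, Plin4 and Fabp4 had 0 to 5 reads a library at day 0, and Adipoq and Cfd had none, so that no difference in them was detectable at this depth.

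At day 12 the genotype comparison is the one behind the choice of the genes, and its values are a description. In 6 of the 9 genes both Def6-/- libraries lay above both WT libraries, in 3 they overlapped, and in none were both lower. Over all tested genes 15.1% were higher without overlap and 17.7% lower. Adipoq and Cfd passed the filter through Def6-/- cells at day 12 alone, so that their mean there had to be higher. Plin1, Cfd and Adipoq had also stood out in this same difference. The count of 6 is therefore no measure of how adipocyte genes differ between genotypes. The genes that separated were Plin1, Plin4, Lpl, Fabp4, Adipoq and Cfd, and the ones that overlapped were Pparg, Cebpa and Cd36. Both regulators were among the genes that overlapped, but so was the lipid uptake gene Cd36, and Plin4 separated by a narrow margin only.

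Cfd had 23 reads in Def6-/- cells against 3 in WT cells, a ratio of 9.31 with a wide interval (95%, 2.81 to 48.4). Adipoq had 48 against 14 reads, a ratio of 4.16 (2.26 to 8.18), and Plin1 had 62 against 19, a ratio of 3.96 (2.34 to 7.02). Fabp4 had 119 against 59 reads, a ratio of 2.45 (1.78 to 3.41). These 4 genes had their highest level in Def6-/- day 12 replicate 2. Plin4 had 33 against 25 reads, a ratio of 1.60 (0.925 to 2.81). For this gene 1 WT library, at 6.15 normalized CPM, lay close under the lower Def6-/- library at 6.42. Lpl differed by a ratio of 1.25 (1.17 to 1.34) on 1728 against 1677 reads. All these intervals leave out the spread between replicates, so that they are no test of genotype, whether or not they include 1. Ratios were 0.963 for Cd36 (0.865 to 1.07), 0.947 for Cebpa and 0.917 for Pparg.

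**Figure D3:**
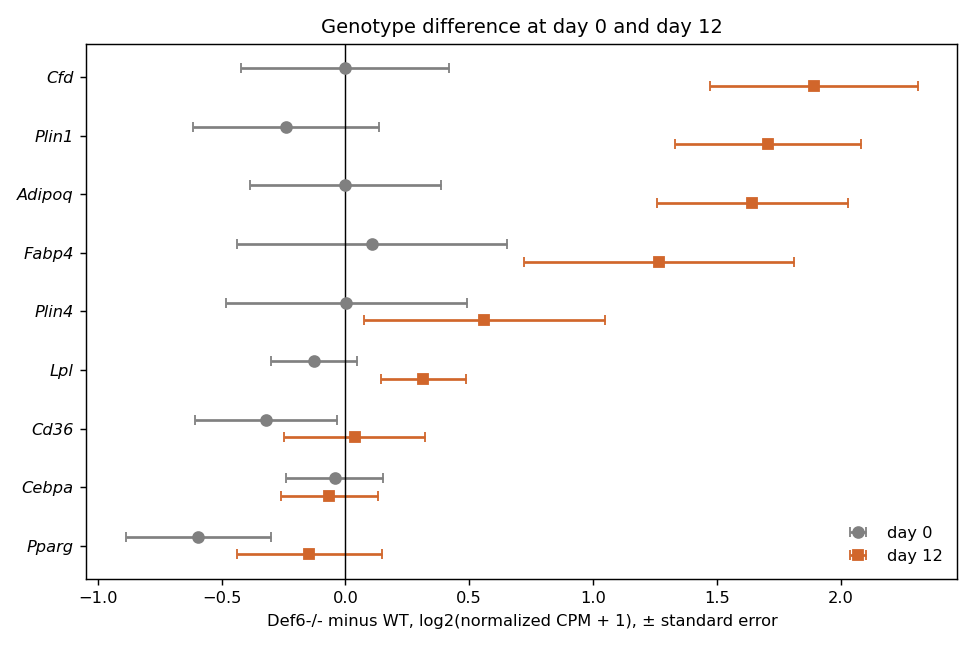
Def6-/- minus WT on the log2(normalized CPM + 1) scale (x axis) for 9 adipocyte genes (y axis) at day 0 (grey circles) and day 12 (orange squares); bars are standard errors of the fit. At day 12, which is shown as a description, Cfd, Plin1 and Adipoq stand at 1.64 to 1.89, and Cd36, Cebpa and Pparg lie within their standard error of 0.

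On the log2 scale the day 12 differences were 1.89 ± 0.42 for Cfd, 1.71 ± 0.38 for Plin1, 1.64 ± 0.39 for Adipoq and 1.27 ± 0.55 for Fabp4 (SE). They were 0.56 ± 0.49 for Plin4, 0.32 ± 0.17 for Lpl, 0.04 ± 0.29 for Cd36, -0.06 ± 0.19 for Cebpa and -0.15 ± 0.29 for Pparg. The signs for Cebpa, Pparg and Cd36 are not stable. Cebpa stood at 0.06 without WT day 12 replicate 1 and at 0.12 without Def6-/- day 12 replicate 2. Pparg stood at 0.12 and Cd36 at -0.27 without WT day 12 replicate 2. With the deposited CPM left unscaled, which moves the median of all genes at day 12 by 0.0796, Cebpa stood at 0.02.

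Markers of other cell types moved with day. Of 20 genes listed for macrophages and osteoclasts, 18 had whole read values, nearly all of them macrophage genes. The summed level of the 18 was 309 to 581 normalized CPM at day 0, and at day 12 it was 7355 and 3807 in WT cells and 4593 and 4076 in Def6-/- cells. Of the 17 such genes tested, 16 rose (limma, adjusted p under 0.05), among them Mrc1 by 4.70 ± 0.24 and Ctss by 3.96 ± 0.23 on the log2 scale (SE). WT day 12 replicate 1 was highest in 17 of the 18. It was also the highest library for Cd36 and, close to Def6-/- day 12 replicate 1 (164 against 163 normalized CPM), for Cebpa. For Lpl it was the lowest day 12 library (275). Pparg was highest in WT day 12 replicate 2 and Fabp4 in Def6-/- day 12 replicate 2. The osteoclast gene Dcstamp had at most 2 reads a library. The 2 listed genes left out, whose deposited values are not whole reads, are not part of these counts: Acp5, an osteoclast enzyme, was at 6.94 to 9.02 normalized CPM at day 0 and 3.10 to 5.94 at day 12, and Ptprc, the leukocyte marker CD45, at 2.91 to 4.71 and 2.86 to 12.1. The macrophage sum overlapped between genotypes at day 12. The part of macrophages in the rise of Pparg, Cebpa, Lpl, Cd36 and Fabp4 was not tested.

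Osteoblast markers were also higher in Def6-/- cells at day 12. Their sum was 131940 and 113860 normalized CPM against 95835 and 111400 in WT cells, and 8 of 12 were higher without overlap and 0 lower, where 15.1% of all genes were higher and 17.7% lower. Their part in the adipocyte genes' difference was not tested. Endothelial markers summed to 15.4 to 24.2 normalized CPM over 12 genes, 3 of which, Emcn, Tie1 and Robo4, had no read. Skeletal muscle markers summed to 3.64 to 15.4 over 10 genes, with Myod1 at 0.

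**Figure D4:**
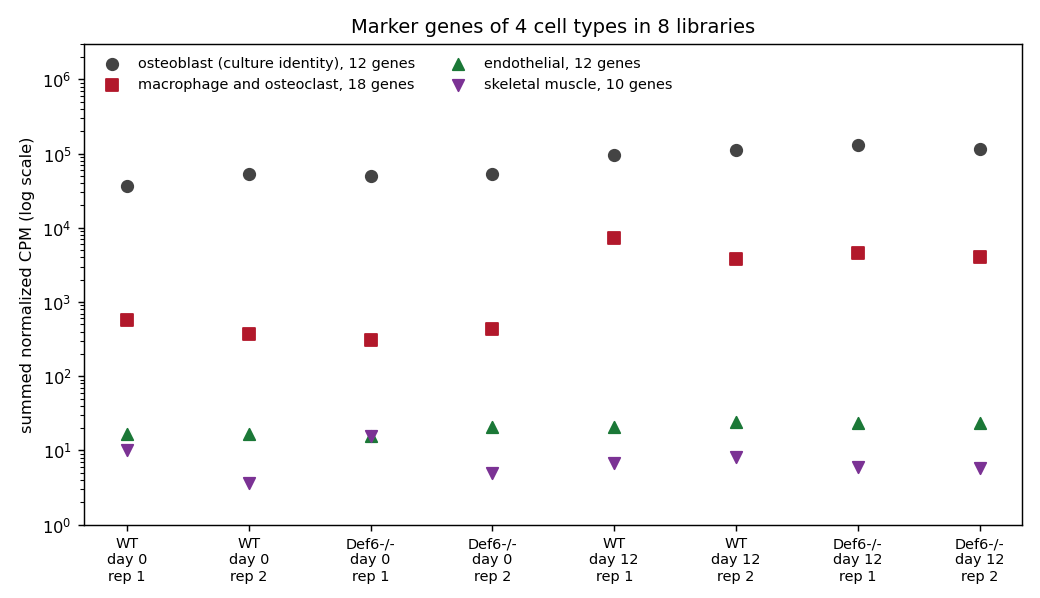
Summed normalized CPM (y axis, log scale) of marker genes of osteoblasts, macrophages with osteoclasts (18 of 20 listed genes), endothelium and skeletal muscle in the 8 libraries (x axis). The macrophage sum is higher in every day 12 library than in every day 0 library and highest in WT day 12 replicate 1, at 7355.

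The wider programme of fat cells was then read from 137 other genes in 12 lists. Of the 108 that passed the filter, 39 rose by day 12, 14 fell and 55 did not pass the test, with a median change of 0.28 on the log2 scale against -0.0566 over all tested genes. Over all tested genes 18.2% rose and 15.5% fell, shares to set beside each count below, and the 14 that fell are no more than that background. The filter was passed through day 12 alone by 15 of the 108, and the lists are small. Named below among these 15 are Nr1h3, Gpd1, Agt, Aoc3, Car3 and Dio2, which therefore had to differ.

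**Figure D5:**
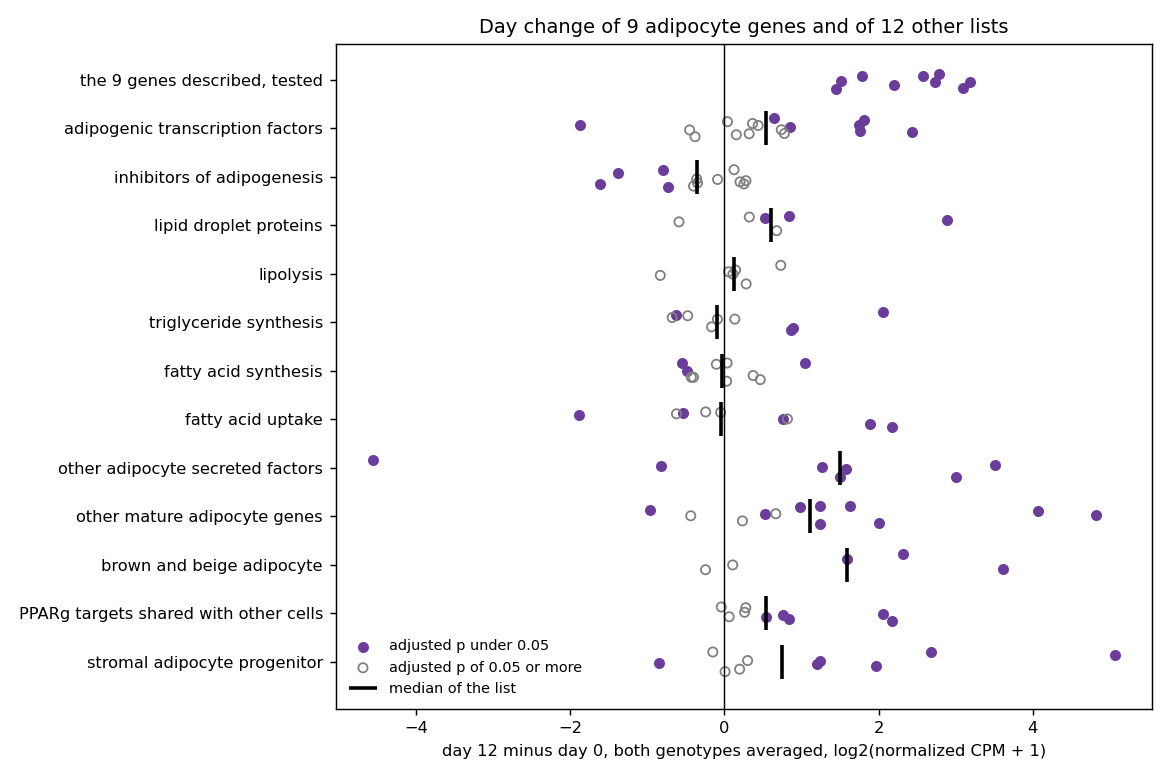
Change from day 0 to day 12 averaged over genotypes (x axis, log2 scale) for the 9 adipocyte genes tested and for 12 other lists (y axis); filled points passed the test at an adjusted p under 0.05, open points did not, and black lines are list medians, not drawn for the 9 genes because the filter chose among them. The lists for lipolysis and fatty acid synthesis sit around 0.

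Of 16 other transcription factors of adipogenesis tested, 6 rose, 1 fell and 9 did not pass, where 18.2% of all genes rose and 15.5% fell. Nr1h3, which encodes the sterol receptor LXRα and is also a macrophage gene, rose by 2.43 ± 0.29 on the log2 scale, Zfp423 by 1.81 ± 0.26 and Ebf1 by 1.74 ± 0.16 (SE). Klf5, an early activator of Pparg, fell by 1.87, from 11 to 16 reads a library at day 0 to 1 to 4 at day 12. It passed the filter through day 0 alone, so that it had to differ. Among 12 inhibitors of adipogenesis none rose, 4 fell and 8 did not pass, against the same 18.2% and 15.5%, and those with the smallest p were Ddit3 (-1.61 ± 0.23), which encodes CHOP, Nr2f2 (-0.74 ± 0.16) and Hes1 (-1.38 ± 0.32), a Notch target.

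Other lipid droplet and lipid metabolism genes were mixed. Of 6 other droplet genes tested, 3 rose: G0s2, an inhibitor of the lipase ATGL (2.88 ± 0.26), and the perilipins Plin2 (0.83 ± 0.15) and Plin3 (0.53 ± 0.12), which most cells express. None of 6 lipolysis genes passed in either direction (limma), and the median of the list was 0.13. Of 9 triglyceride synthesis genes 3 rose, Gpd1 (2.06 ± 0.40), Lpin1 (0.89 ± 0.16) and Acsl1 (0.87 ± 0.19), and Agpat6 fell by 0.63. Of 10 fatty acid synthesis genes, Scd2 rose (1.05 ± 0.20), Elovl5 and Me1 fell, and 7 did not pass. Of 9 fatty acid uptake genes, 3 rose, led by Angptl4, an inhibitor of lipoprotein lipase and a PPAR target (2.17 ± 0.16), and Slc27a1 (1.89 ± 0.21). The caveolin genes Cav1 and Cav2 fell by 1.88 and 0.53.

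All 7 other secreted factors tested changed, 5 up and 2 down. Agt, which encodes angiotensinogen, rose by 3.51 ± 0.31, Rarres2, which encodes chemerin, by 3.01 ± 0.21, and Nampt by 1.26 ± 0.20 (SE). Angptl2, an angiopoietin-like protein, fell by 0.82. Of 12 other mature adipocyte genes 8 rose and 1 fell, against 18.2% and 15.5% of all genes. Aoc3, an amine oxidase of fat cells and smooth muscle, went from 3 reads in WT and 8 in Def6-/- cells to 320 and 267 (4.81 ± 0.20), and Car3, a carbonic anhydrase abundant in fat and muscle, rose by 4.06 ± 0.23. Brown and beige fat genes gave 3 of 5 higher, among them Dio2, which activates thyroid hormone (3.62 ± 0.30). These 3 passed the filter through day 12 alone, so that they had to differ. The other 2, Prdm16 and Zic1, did not pass the test. Ucp1, which defines brown fat, had no read in any library.

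Genes that PPARγ shares with other PPAR-driven tissues gave 5 of 9 higher and none lower, among them Ucp2 (2.06 ± 0.19), with Angptl4, Fabp5 and Plin2 counted here as well as in other lists. Stromal progenitor genes gave 5 of 10 higher and 1 lower. The background for these counts is again 18.2% higher and 15.5% lower. Cxcl12, the chemokine of marrow adipocyte progenitors and other stroma, went from 60.7 ± 3.50 to 1830 ± 77.9 normalized CPM in WT cells (SD, n = 2). Lepr, the leptin receptor, fell by 0.85.

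Several genes of mature fat stayed at or near 0 beside Plin1 and Adipoq. No library had a read of Cidea, Mogat1, Gpihbp1, Cyp2e1 or Ucp1. Retn, which encodes resistin, had 3 reads in all libraries together, Adig and Thrsp had 3 each, Plin5 and Fitm1 had 1 each, Aqp7 had 4 and Pck1 had 5. In all, 22 of the 137 genes had no more than 3 reads in any library.

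Between genotypes at day 0, 1 of the 108 genes was higher in Def6-/- cells and 1 lower by the unadjusted limma p with a 1.2-fold minimum, shares close to the 1.13% and 1.21% of all genes. Aoc3 was higher by 0.67 ± 0.28 (SE) and G0s2 was lower, by -1.74 ± 0.36, with 7.85 and 11.3 normalized CPM in WT cells and 1.16 and 3.52 in Def6-/- cells. Neither passed after adjustment (adjusted p = 0.905 for both). At day 12, as a description, 21 of the 108 were higher in Def6-/- cells without overlap and 14 lower, with a median difference of 0.05, near the 15.1% higher and 17.7% lower of all tested genes. Car3, Acsl1, Gpd1 and Plin2 were picked from these after their values were seen, and do not stand for the 21 or the 14. Car3 stood at 13.9 and 12.7 normalized CPM in WT cells and 28.1 and 32.4 in Def6-/- cells. Acsl1 stood at 32.2 and 29.9 against 41.3 and 63.1. Gpd1 stood at 4.55 and 2.46 against 5.21 and 10.4, on only 16 and 6 reads against 13 and 25. Plin2 went the other way, with 127 and 116 in WT cells and 106 and 108 in Def6-/- cells.

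As a description of likeness, every tested gene was ranked by its Pearson r with Adipoq over the 8 libraries, on the log2 scale. The 5 nearest were Plin1 (r = 0.993, Spearman's rho 0.936), Adamts15 (0.993, 0.913), Kif26a (0.991, 0.939), Angpt4 (0.980, 0.919) and Gnb5 (0.980, 0.939). Of 12347 genes ranked, Cfd came 28th, Fabp4 47th, Lpl 111th, Plin4 278th, Cd36 379th, Cebpa 585th and Pparg 1141st. The points share the step from day 0 to day 12, and Adipoq has 5 distinct levels only, since all 4 day 0 libraries are at 0. Plin1, Cfd and Adipoq were also chosen for standing out between genotypes at day 12, so that their likeness follows in part from that choice.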

How the data were processed

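The authors selected poly-A RNA, trimmed reads with fastp, aligned them to mm10 with HISAT2, counted reads in features with HTSeq and made counts per 1000000 reads (CPM) with edgeR, per the labels and the study's methods; versions are not given in the sources used here. The deposited CPM values are per 1000000 of all reads, 64.7 to 71.2% of which fell outside genes. Reads were recovered as whole multiples of the value of 1 read: 99.959% of 114821 positive values were whole within 0.05 reads, and 47 values in 9 genes were not (Acp5, Adgre1, Cd14, Csf1r, Ctsk, Fcgr3, Itgam, Itgb3 and Ptprc), none of them among the 10 adipocyte genes. From these, normalized CPM was computed on reads on genes with TMM factors (edgeR 4.0.16), and log2(normalized CPM + 1) was fitted with limma 3.58.1 (R 4.3.3) with 4 group means over 8 libraries, keeping the 12348 genes whose group mean of the deposited values reached 1 in any group. The fit was tested on simulated data. Thresholds were an adjusted p of 0.05 for day, and for genotype at day 0 an unadjusted p of 0.05 with 1.2-fold. Alternatives were a pseudocount of 0.25, no filter, deposited CPM, edgeR's quasi-likelihood test and DESeq2 1.42.0 on recovered reads, a replicate block, day 0 libraries alone and leaving out each library. The genes and the lists were chosen with earlier results of these data known. From each list, up to 3 genes in each direction with the smallest p for day among those with an adjusted p under 0.05, up to 2 in each direction with the smallest unadjusted p under 0.05 at day 0, and genes at 0 to 3 reads in every library could be named; Car3, Acsl1, Gpd1 and Plin2 at day 12 were picked after their values were seen. Gene positions are from GENCODE on GRCm38. The study calls the 2 libraries of a group biological replicates, and p-values measure the spread between them. The values of 1 listed gene are not reported here.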

Additional observations from a re-analysis of the deposited data

How the results depend on the processing

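The rise with day kept its direction for all 9 genes under all 14 alternatives, and stayed past the threshold under the 6 that kept all 8 libraries. Only Pparg, Cebpa, Lpl and Cd36 passed the filter at day 0. The other 5 passed through day 12 groups alone, so that for them the alternatives cannot decide whether adipocyte genes rise. At day 0 no gene of the 9 passed under any of 14 alternatives, nor did the 4 genes that could be fitted on day 0 libraries alone (Pparg, Cebpa, Lpl and Cd36), but small differences changed sign: Plin4 stood at -0.011 with a pseudocount of 0.25, -0.045 with edgeR and -0.0251 with DESeq2, Fabp4 at -0.0623 with edgeR and -0.0646 with DESeq2, and Cebpa at 0.0691 with deposited CPM. With single libraries left out, Plin4 ranged from -0.45 to 0.46 (-0.40 without WT day 0 replicate 1, -0.005 without either Def6-/- day 12 library or WT day 12 replicate 2), Fabp4 from -0.67 to 0.88 (-0.35 without Def6-/- day 0 replicate 1), and Lpl from -0.273 to 0.0177. The cause was not tested; Plin4 and Fabp4 have 0 to 5 reads a library at day 0. The untested day 12 differences changed sign for Cebpa (0.023 with deposited CPM, -0.218 to 0.116 without a library), Pparg (-0.396 to 0.122) and Cd36 (-0.269 to 0.361). Over the alternatives, Cfd ranged from 1.14 to 3.26, Adipoq from 1.27 to 2.07 and Plin1 from 1.39 to 2.02.

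Genes lower at day 12 numbered 1917, and 851 to 3363 with single libraries left out (851 without WT day 12 replicate 2, 3363 without WT day 0 replicate 2); other adipocyte genes lower numbered 14, and 7 to 22. At day 0, 139 genes were higher and 150 lower: 219 higher without a filter, 35 with DESeq2 and 22 with day 0 libraries alone, 53 lower with deposited CPM and 40 with day 0 libraries alone, and 65 to 2386 higher and 92 to 2213 lower with single libraries left out, the largest without WT day 0 replicate 2. The 1 other adipocyte gene higher became 2 with a pseudocount of 0.25, 0 with deposited CPM, edgeR, DESeq2 and day 0 libraries alone, and 0 to 28 with single libraries left out; the 1 lower became 1 to 11. The 1 gene with an adjusted p under 0.05 became 0 with day 0 libraries alone, and 1 to 2921. At an unadjusted p under 0.05, limma gave 289 genes, edgeR 309 and DESeq2 212.

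Replicate numbers occur in all groups, but nothing says that a number marks a shared litter or day. Deviations of same-numbered libraries correlated by 0.00285 to 0.325 over the pairs of groups. With replicate number as a block, 2318 genes were higher and 2135 lower at day 12, 178 and 184 at day 0, and the calls of the 9 genes did not change. Depth limits the low genes, in which 1 read is 0.285 to 0.415 normalized CPM.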
